A study of Homo sapiens with 6 samples.

Results

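The liver X receptors and the genes of sterol efflux were compared between a lenvatinib resistant hepatoma line and its parent. The set holds 10 genes, given by name and matched by symbol, of 26184 genes and loci listed in the expression table. It covers the receptors NR1H2 and NR1H3, the transporters ABCA1, ABCA5, ABCA7, ABCG1, ABCG5 and ABCG8, the phospholipid transfer protein PLTP and the carboxylesterase CES1. The study established Huh7 LR, a hepatocellular carcinoma line that grows in lenvatinib, a tyrosine kinase inhibitor, and sequenced its mRNA beside that of the parental line Huh7 P. Huh7 P was labelled as untreated, and Huh7 LR as kept in lenvatinib at 1 to 20 μM throughout 10 months. Both lines carry the genotype label WT and there were 3 libraries of each. Huh7 LR is a single derived line. The sources do not state whether Huh7 P was passaged in parallel, nor whether drug was in the medium when the RNA was taken, although the study describes the line as maintained at 20 μM. The methods call the samples independent without saying how they were separated, so each p-value measures only the spread between these samples.

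The liver X receptors are nuclear receptors that bind oxysterols, which accumulate when a cell holds more cholesterol than it needs. Together with a retinoid X receptor they sit on DNA and switch on genes that move sterol out of the cell or hold back its uptake. In the liver these genes feed high density lipoprotein and bile, while SREBP2, a separate transcription factor, drives cholesterol synthesis when sterol is scarce.

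The libraries held between 62738937 and 71427573 counted reads, and 3 reads corresponded to 0.042 to 0.0478 CPM by these totals alone. CPM is the usual count scaled to a common library size, and every other CPM value is also adjusted by the trimmed mean of M-values (TMM). All 9 hepatocyte markers that were looked up, among them ALB and HNF4A, were detected in both lines. Of the 9 macrophage markers, VSIG4, TYROBP and C1QA had no read in any library. The others had reads, with CD68 at 68.3 CPM in Huh7 P and 46.5 CPM in Huh7 LR. In bulk RNA, fewer cells of a type and less RNA per cell cannot be told apart.

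Of the 10 genes, 8 had enough reads to be tested, and ABCG5 and ABCG8 did not. By edgeR's quasi-likelihood test, adjusted over 17531 genes and loci, 5 rose in Huh7 LR with adjusted p-values below 0.05 (NR1H2, ABCA5, ABCA7, ABCG1 and CES1). PLTP fell, and NR1H3 and ABCA1 did not pass. Over everything tested, 23.3% was higher and 22.4% was lower at the same threshold. With adjusted p-values below 0.001 and changes beyond 2-fold, ABCA5, ABCA7, ABCG1 and CES1 were higher and PLTP was lower, where 4.43% of everything tested was higher and 1.78% was lower. The libraries of the lines did not overlap for 6 of the 8 genes, as for 55.9% of everything tested. The median absolute log2 fold change was 1.24 over the 8 genes and 0.33 over everything tested. The set was chosen with earlier results of these data known, so none of these contrasts is a test of it.

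The promoters are shown because the liver X receptors act through a DNA element known as DR4, a pair of AGGTCA hexamers in the same orientation with 4 bases between them. RefSeq windows on GRCh38.p14, from 250 bases before to 50 bases after a transcript start, were found for 8 of the 10 genes, with 12 windows in all, and none was found for ABCG1 or CES1. Both strands were searched for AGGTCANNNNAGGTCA with up to 2 mismatches in the hexamers. Only the ABCA1 window, among the 12, held a match, on the strand opposite to the gene at 69 to 54 bases before the start, where the element reads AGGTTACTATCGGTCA. Of 35116 promoter windows of the same length, 2.34% held such a match and 0.0199% held one without mismatches. A lone AGGTCA, which 13.8% of all windows hold, was in 1 of the 4 NR1H3 windows. The windows of ABCA1 (chr9:104928106-104928405, minus strand), which did not pass the test, and of ABCA5 (chr17:69327084-69327383, minus strand), ABCA7 (chr19:1039857-1040156, plus strand) and PLTP (chr20:45912106-45912405, minus strand), which changed, read as follows, with the hexamers of the ABCA1 match in capitals. The window of PLTP is the more upstream of its pair of windows.
ABCA1: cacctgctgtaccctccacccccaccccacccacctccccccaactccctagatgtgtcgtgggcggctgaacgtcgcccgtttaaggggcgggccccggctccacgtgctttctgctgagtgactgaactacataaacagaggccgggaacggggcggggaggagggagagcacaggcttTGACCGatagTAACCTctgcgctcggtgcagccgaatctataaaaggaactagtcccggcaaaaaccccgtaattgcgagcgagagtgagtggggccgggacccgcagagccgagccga
ABCA5: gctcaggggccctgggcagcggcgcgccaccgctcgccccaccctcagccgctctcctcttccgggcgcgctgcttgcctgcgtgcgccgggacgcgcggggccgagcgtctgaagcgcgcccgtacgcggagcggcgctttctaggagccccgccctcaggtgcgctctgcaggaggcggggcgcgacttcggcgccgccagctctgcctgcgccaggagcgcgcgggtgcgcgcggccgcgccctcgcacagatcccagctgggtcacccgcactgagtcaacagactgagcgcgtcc
ABCA7: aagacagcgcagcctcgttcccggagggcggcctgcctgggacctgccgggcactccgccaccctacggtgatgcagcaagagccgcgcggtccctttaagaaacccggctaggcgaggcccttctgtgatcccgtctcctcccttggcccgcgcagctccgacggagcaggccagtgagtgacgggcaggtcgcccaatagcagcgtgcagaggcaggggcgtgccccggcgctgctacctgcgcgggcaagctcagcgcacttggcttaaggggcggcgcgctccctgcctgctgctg
PLTP: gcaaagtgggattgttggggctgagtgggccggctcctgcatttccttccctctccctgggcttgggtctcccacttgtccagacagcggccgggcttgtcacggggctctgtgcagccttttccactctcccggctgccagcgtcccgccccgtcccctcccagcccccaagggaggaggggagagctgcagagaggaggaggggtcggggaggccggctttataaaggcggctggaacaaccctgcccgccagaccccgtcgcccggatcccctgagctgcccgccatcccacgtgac
A match is a description of the letters, and windows without a match say nothing about receptor binding elsewhere.

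The receptors came first in the comparison. NR1H2 encodes LXRβ, which most tissues express, and spans chr19:50329653-50382982 on GRCh38 (GENCODE release 29, as for all gene positions here). It stood at 57.2, 57.0 and 54.0 CPM in the Huh7 P libraries and at 62.6, 69.4 and 65.1 CPM in the Huh7 LR libraries. All 3 Huh7 LR libraries were above all 3 Huh7 P libraries, by a small margin. The change was 1.17-fold (95% interval 1.05 to 1.30) with an adjusted p of 0.0190 by edgeR's quasi-likelihood test. The call was lost without Huh7 P library 2 (log2 fold change 0.245, adjusted p 0.0538), Huh7 P library 3 (0.199, adjusted p 0.0798) or Huh7 LR library 3 (0.235, adjusted p 0.054), against 0.229 with all libraries.

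NR1H3 encodes LXRα, the form that is abundant in liver and macrophages (chr11:47248300-47269032). Its levels were 38.8, 38.5 and 42.4 CPM in Huh7 P and 44.4, 45.3 and 41.3 CPM in Huh7 LR. The highest Huh7 P library lay above the lowest Huh7 LR library, so the lines overlapped. The log2 fold change of 0.13 (SE 0.07, 95% interval -0.04 to 0.29) had an adjusted p of 0.185. By FPKM, which corrects for transcript length, NR1H3 made up 46.4% ± 1.26 (SD, n = 3) of the summed receptor level in Huh7 P and 44.05% ± 0.978 (SD, n = 3) in Huh7 LR. The exact two-sided permutation p of this difference was 0.2, where 0.1 is the smallest that 3 against 3 libraries allow. NR1H3 shares 189 exon bases (4.17% of its exon sequence) with ACP2 on the opposite strand, and reads from these bases cannot be assigned to a gene without strand information. ACP2 had a log2 fold change of 0.12 with an adjusted p of 0.252.

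The retinoid X receptors pair with the liver X receptors, and RXRA rose 1.24-fold from 61.7 to 76.4 CPM (adjusted p 0.00669), while RXRB rose 1.27-fold from 31.0 to 39.4 CPM (adjusted p 0.00796). RXRG had no read. Among the 16 listed partners and cofactors, 15 were tested, 4 rose and 2 fell, with a median log2 fold change of 0.09 against 0.0046 over everything tested. Of those tested, 26.7% were higher and 13.3% lower, where 23.3% of everything tested was higher and 22.4% was lower. TBL1X, a subunit of the NCoR corepressor complex, had a log2 fold change of 0.61, and HDAC3, the deacetylase of that complex, had 0.30. The corepressor NCOR1 fell by 0.22 and TBL1XR1, a relative of TBL1X, fell by 0.42 on the log2 scale. The call of HDAC3 was lost without Huh7 P library 1 (adjusted p 0.057) or library 2 (0.0566), and that of NCOR1 without Huh7 P library 2 (0.0797).

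**Figure D1:**
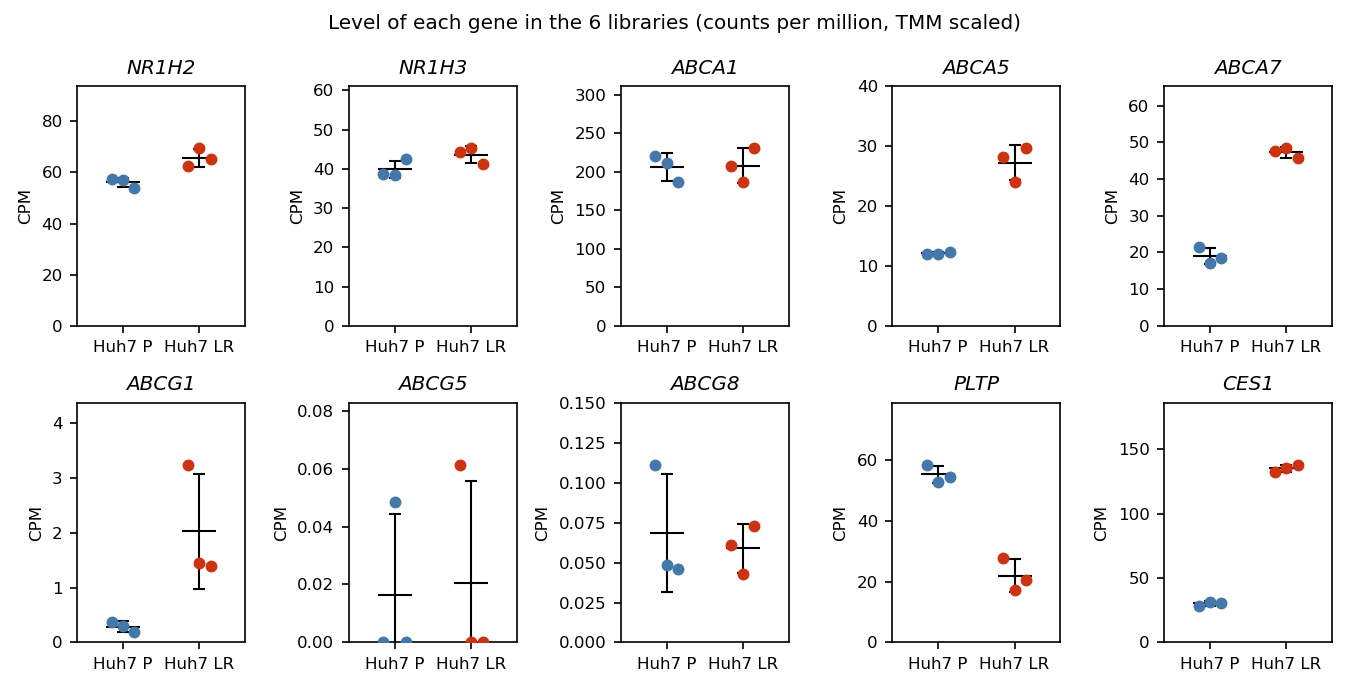
Level of each of the 10 genes in CPM (vertical axes from 0, a separate scale per gene) in the 3 Huh7 P and 3 Huh7 LR libraries. Points are libraries, in replicate order from left to right, and bars are the mean and SD. CES1 sits near 30 CPM in Huh7 P and above 130 CPM in Huh7 LR, ABCA1 overlaps between the lines, and ABCG5 and ABCG8 hold 8 reads or fewer in every library.

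ABCA1, ABCA5 and ABCA7 belong to the ABCA family of transporters. ABCA1 hands cholesterol and phospholipid to lipid-poor apolipoprotein A-I and is among the best known targets of the liver X receptors (chr9:104781002-104928237). Huh7 P libraries held 221, 211 and 186 CPM and Huh7 LR libraries 207, 186 and 230 CPM. The ranges of the lines nearly coincided. The fold change was 1.01 with a 95% interval of 0.876 to 1.16 (adjusted p 0.919). Its direction turned when Huh7 P library 3 (log2 fold change -0.06) or Huh7 LR library 3 (-0.07) was left out.

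ABCA5, a transporter of lysosomes and late endosomes, lies at chr17:69244311-69327244. It had 12.04, 12.07 and 12.36 CPM in Huh7 P and 28.1, 23.9 and 29.7 CPM in Huh7 LR. The 3 Huh7 P libraries were nearly equal and every Huh7 LR library was well above them. ABCA5 rose 2.24-fold (95% interval 1.93 to 2.60, adjusted p 5.58e-06). On the log2(FPKM + 1) scale its change was 0.83, which is below 2-fold because the added 1 is large beside its FPKM. It shares 318 exon bases (2.42%) with ABCA10 on the same strand, and ABCA10 reached at most 0.307 CPM in any library.

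ABCA7, a close relative of ABCA1 that also moves phospholipid to apolipoproteins, lies at chr19:1040101-1065572. Its levels were 21.5, 17.2 and 18.6 CPM in Huh7 P and 47.7, 48.4 and 45.7 CPM in Huh7 LR. The Huh7 LR libraries formed a tight group with a coefficient of variation of 3.03%. ABCA7 rose 2.48-fold (95% interval 2.15 to 2.85, adjusted p 1.73e-06). The intervals of ABCA5 and ABCA7 lie wholly above that of ABCA1, and the difference between the genes was not tested.

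ABCG1, ABCG5 and ABCG8 belong to the ABCG family, whose proteins work as dimers. ABCG1 transfers sterol to mature high density lipoprotein and is a liver X receptor target in macrophages (chr21:42199689-42297244). It was counted 27, 19 and 12 times in Huh7 P and 211, 101 and 95 times in Huh7 LR, which is 0.376, 0.308 and 0.184 CPM against 3.24, 1.44 and 1.39 CPM. Every Huh7 LR library was above every Huh7 P library, and Huh7 LR library 1 held more than the other Huh7 LR libraries. The change was 6.92-fold with a wide 95% interval of 3.76 to 12.8 (adjusted p 2.20e-04). Without Huh7 LR library 1 the log2 fold change was 2.28 in place of 2.79, and it was 1.92 by limma-trend on log2(FPKM + 0.1) without a filter, where CES1 had 2.175.

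Macrophage markers were examined beside ABCG1. Of the 9 markers 4 were tested, of which CSF1R (0.0883 to 0.376 CPM) and MARCO (0.106 to 0.342 CPM) rose, CD68 fell from 68.3 to 46.5 CPM and CD14 did not pass (1.88 and 2.71 CPM). The summed level of the list was 33.7 to 37.1 FPKM in Huh7 P and 23.8 to 27.4 FPKM in Huh7 LR, with the markers VSIG4, TYROBP and C1QA at 0. Stellate cell and fibroblast markers summed to 0.474 to 0.526 FPKM in Huh7 P and 0.916 to 1.82 FPKM in Huh7 LR, with 2 of 3 tested markers higher (COL1A1 and PDGFRB) and DCN at 0. Endothelial markers summed to 5.54 to 6.48 and 9.02 to 9.84 FPKM, nearly all of it PECAM1, with CDH5 and TEK at 0. Of 5 cholangiocyte markers 4 were tested, 2 were higher and KRT19 was lower, and the list summed to 172.5 to 173.4 FPKM in Huh7 P and 172.0 to 176.2 FPKM in Huh7 LR. The part of the other markers that are above 0 in the changes of the 10 genes was not tested.

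ABCG5 and ABCG8 form the canalicular pump that sends sterol into bile, and lie head to head at chr2:43812472-43838865 and chr2:43831942-43882987. ABCG5 was counted 0, 3 and 0 times in Huh7 P and 4, 0 and 0 times in Huh7 LR. ABCG8 was counted 8, 3 and 3 times in Huh7 P and 4, 3 and 5 times in Huh7 LR. A difference was not detectable at this depth for either gene, and no fold is given. Their promoter windows share 231 bases and their exons share 137 bases on opposite strands.

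**Figure D2:**
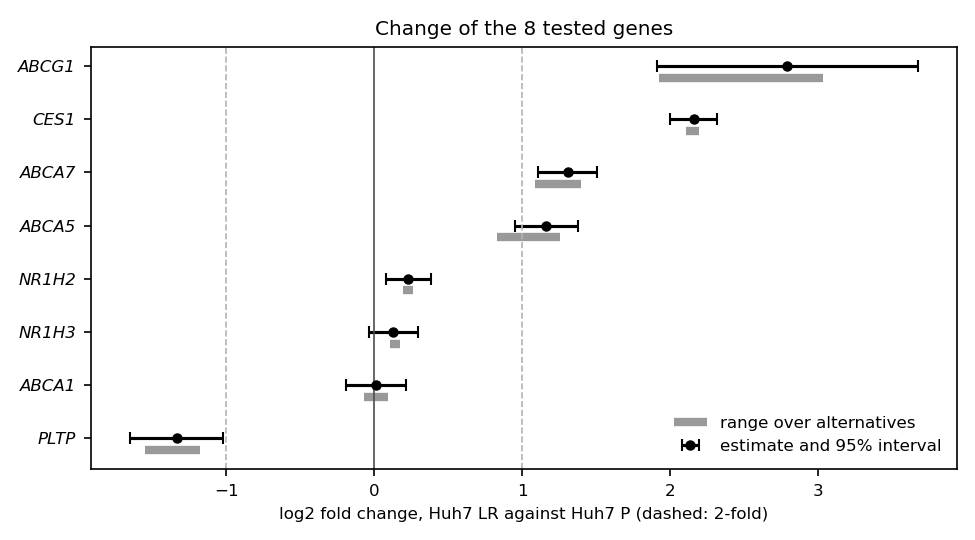
Log2 fold change of Huh7 LR against Huh7 P (horizontal axis) for the 8 tested genes. Black points and bars are the estimate and its 95% interval, grey bars the range over the alternative settings, and dashed lines mark 2-fold. ABCG1, CES1, ABCA7 and ABCA5 lie right of the 2-fold line and PLTP lies left of it, while the intervals of NR1H3 and ABCA1 cross 0.

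PLTP moves phospholipid between lipoproteins and remodels high density lipoprotein (chr20:45898621-45912155). It is a known liver X receptor target and was the only one of the 8 tested genes to fall. Its levels were 58.6, 53.0 and 54.6 CPM in Huh7 P and 28.0, 17.3 and 20.6 CPM in Huh7 LR. Every Huh7 LR library lay below every Huh7 P library, and Huh7 LR library 1 was the highest of its line. PLTP was 2.52-fold lower in Huh7 LR (95% interval 2.03 to 3.14, adjusted p 3.06e-05). It shares 200 exon bases (7.87%) with CTSA on the opposite strand, and CTSA rose from 196 to 305 CPM (log2 fold change 0.64, adjusted p 2.24e-04).

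CES1 is a liver carboxylesterase that hydrolyses esters, including drugs and lipids (chr16:55802851-55833337). It had 28.2, 31.7 and 30.8 CPM in Huh7 P and 132, 135 and 138 CPM in Huh7 LR. The lines were far apart and the spread within Huh7 LR was small, with a coefficient of variation of 2.20%. CES1 rose 4.47-fold (95% interval 4.003 to 4.99, adjusted p 2.12e-08), and over the alternative settings its log2 fold change stayed between 2.11 and 2.20. The pseudogene CES1P1, which resembles CES1 closely, was not analysed here, so reads divided between them are uncertain. None of the 4 tested relatives of CES1 and PLTP passed the test, among them CES2 (log2 fold change 0.10, adjusted p 0.294) and AADAC (-0.09, adjusted p 0.424).

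Levels were compared between genes by FPKM. In Huh7 P the order was PLTP (28.7 FPKM), NR1H2 (26.6), NR1H3 (23.1), ABCA1 (18.1), CES1 (13.8), ABCA7 (2.65), ABCA5 (2.06) and ABCG1 (0.0794), with ABCG8 and ABCG5 at the bottom. In Huh7 LR it was CES1 (62.5 FPKM), NR1H2 (31.7), NR1H3 (25.0), ABCA1 (18.6), PLTP (11.6), ABCA7 (6.74), ABCA5 (4.48) and ABCG1 (0.621). Neighbours in each order did not overlap between libraries except ABCG5 and ABCG8. PLTP moved from the first to the fifth place and CES1 from the fifth to the first, while the order of the other genes down to ABCG1 stayed as it was.

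**Figure D3:**
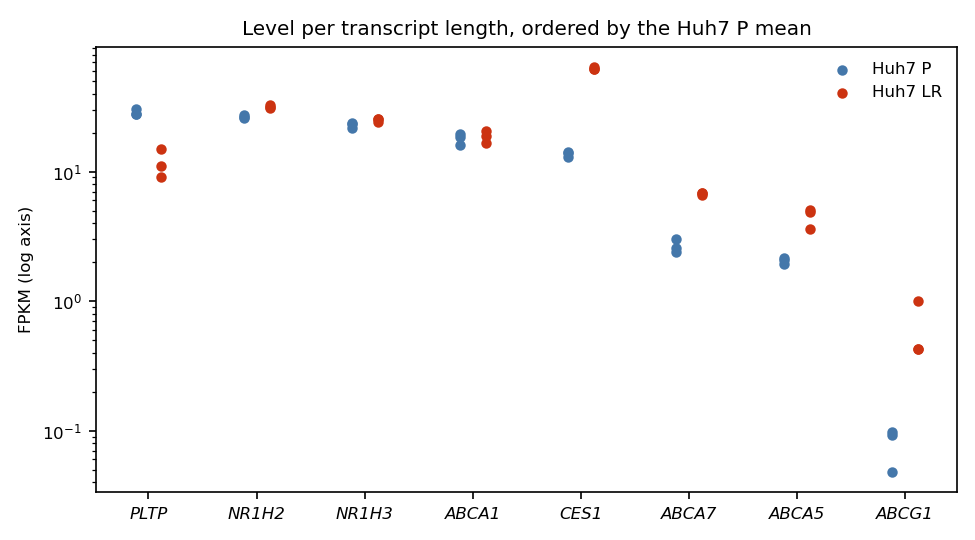
FPKM of 8 genes in each library on a log axis, ordered by their Huh7 P mean. Blue points are the 3 Huh7 P libraries and red points the 3 Huh7 LR libraries, with ABCG5 and ABCG8 left out because some of their values are 0. CES1 ends highest in Huh7 LR at 62.5 FPKM, and PLTP drops from 28.7 to 11.6 FPKM.

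Of 18 other known targets of the liver X receptors, 14 were tested, 8 rose and APOC2 fell, with a median log2 fold change of 0.44. The 8 are 57.1% of those tested, where 23.3% of everything tested and 55.6% of the hepatocyte markers rose. MYLIP, a ubiquitin ligase that limits cholesterol uptake, had 12.9, 14.1 and 13.3 CPM in Huh7 P and 20.2, 16.9 and 19.0 CPM in Huh7 LR, without overlap (log2 fold change 0.48, adjusted p 0.00208). LPCAT3, which builds polyunsaturated phospholipids, rose from 74.9 ± 3.08 to 115 ± 17.1 CPM (SD, n = 3, adjusted p 4.86e-04). SREBF1, which encodes the fatty acid synthesis regulator SREBP1, was at 163 CPM in Huh7 P and 164 CPM in Huh7 LR (adjusted p 0.917).

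The genes of the apolipoprotein E cluster, which belong to this list, moved unevenly. APOE rose from 960, 922 and 914 CPM to 2367, 2201 and 2350 CPM, a 2.47-fold change (adjusted p 2.47e-07). APOC1 rose by 0.62 on the log2 scale, and APOC2 fell by 0.55 (adjusted p 8.17e-05), from 171 to 116 CPM. APOC4 had no read in any library. MLXIPL, the carbohydrate response factor ChREBP, rose 2.85-fold from 27.9 to 79.5 CPM (adjusted p 2.84e-06).

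Genes that make or clear the ligands were examined next. Of 13 listed for oxysterols and desmosterol, 8 were tested and 3 rose. The 3 are 37.5% of those tested, where 23.3% of everything tested and 55.6% of the hepatocyte markers rose. SULT2A1, which sulphates sterols, rose from 78.6, 89.5 and 89.5 CPM in Huh7 P to 113, 120 and 121 CPM in Huh7 LR, without overlap (log2 fold change 0.46, adjusted p 5.06e-04). CYP27A1, which makes 27-hydroxycholesterol, stood at 38.9, 45.9 and 44.6 CPM against 43.6, 63.7 and 54.9 CPM with overlap between the lines, and sat at the threshold (log2 fold change 0.33, adjusted p 0.05002). It passed in 8 alternatives, with adjusted p-values from 0.00217 without Huh7 LR library 1 and 0.00734 with the replicate block to 0.0499 with DESeq2's size factors. CYP3A4, which also rose and is named after its values were seen, was below 1 CPM in every library, with 0.111 CPM on average in Huh7 P and 0.645 CPM in Huh7 LR.

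Of 19 listed genes of sterol trafficking, esterification and high density lipoprotein, 18 were tested, 12 were higher and none of the 18 was lower. The 12 are 66.7% of those tested, where 23.3% of everything tested and 55.6% of the hepatocyte markers rose. Over everything tested, 22.4% fell. The median log2 fold change of the list was 0.50. NPC1, which exports cholesterol from lysosomes, rose from 125, 129 and 126 CPM to 273, 258 and 246 CPM (log2 fold change 1.03, adjusted p 1.28e-06). SCARB1, the high density lipoprotein receptor, rose from 191 to 289 CPM (log2 fold change 0.60, adjusted p 2.87e-04). The esterifying enzymes differed in their calls. SOAT2, the hepatocyte form, rose from 61.1 to 87.2 CPM (adjusted p 4.10e-04), while SOAT1 was at 81.4 and 80.6 CPM (adjusted p 0.904), and the difference between them was not tested.

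Within the same list APOA2, an apolipoprotein of high density lipoprotein, had a log2 fold change of 1.49, the hepatic lipase gene LIPC 0.95 and CAV1, the caveolar coat protein, 1.63 (adjusted p 3.13e-05, 4.89e-05 and 1.36e-06). APOM, another apolipoprotein of these particles, named after its values were seen, did not pass (log2 fold change -0.07, adjusted p 0.611). Of 9 hepatocyte markers, 5 rose (ALB, TTR, TF, FGB and AHSG). The other 4 did not pass, with log2 fold changes of 0.17 for APOB, 0.09 for SERPINA1, -0.06 for HNF4A and -0.23 for AFP. The summed level of the 9 was 14664 to 17999.7 FPKM in Huh7 P and 19523 to 20624 FPKM in Huh7 LR. Their part in the changes of APOE, CES1 and the other liver genes was not tested.

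**Figure D4:**
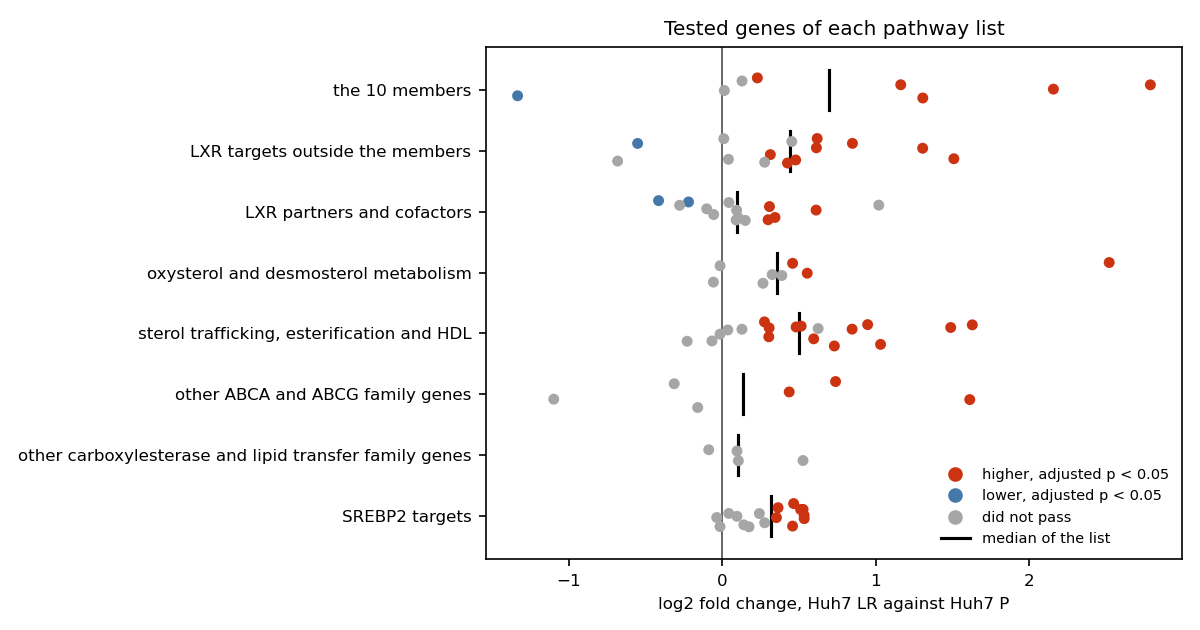
Log2 fold change of Huh7 LR against Huh7 P (horizontal axis) for the tested genes of the 10-gene set and of 7 related lists. Red points rose and blue points fell (adjusted p-values below 0.05), grey points did not pass, and black ticks are list medians, from 0.09 for partners and cofactors to 0.70 for the 10-gene set, of which 8 were tested. Vertical scatter within a list only separates the points.

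Among the other ABCA and ABCG genes, 3 of 6 tested, of 10 listed, rose and none of the 6 fell. The 3 are 50% of those tested, where 23.3% of everything tested rose and 22.4% fell. ABCG2, a drug and sterol conjugate exporter, rose from 12.1 to 16.4 CPM (log2 fold change 0.44, adjusted p 0.00232), and ABCA3, a phospholipid transporter, from 1.00 to 1.68 CPM (adjusted p 0.0222). The call of ABCA3 was lost on log2(FPKM + 0.1) without a filter (0.0609), and without Huh7 P library 1 (0.0689), Huh7 P library 2 (0.0857) or Huh7 LR library 3 (0.0847). The third was ABCA4, which is named after its values were seen and stayed below 1 CPM in every library.

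Targets of SREBP2 were counted as the opposite arm of sterol control. All 16 were tested, 8 rose and none of the 16 fell, with a median log2 fold change of 0.31 against 0.0046 over everything tested. The 8 are 50% of those tested, where 23.3% of everything tested and 55.6% of the hepatocyte markers rose. Over everything tested, 22.4% fell. LSS, DHCR7 and CYP51A1, enzymes of the later steps of cholesterol synthesis, each had a log2 fold change of 0.53, and INSIG1, which holds back SREBP processing, had 0.51. The call of INSIG1 (adjusted p 0.0295) was lost by the Wald test of DESeq2 (0.134), on log2(FPKM + 0.1) without a filter (0.106) and without Huh7 P library 1, 2 or 3 (0.0822, 0.0899 and 0.0697). Its log2 fold change was 0.21 without Huh7 LR library 1.

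The SREBP2 targets depended in part on Huh7 LR library 1, in which 15 of the 16 were at their highest among the Huh7 LR libraries. Their median log2 difference from the Huh7 P mean was 0.579 in that library, 0.0994 in library 2 and 0.189 in library 3. Without library 1 the count was 6 higher and 1 lower, and the median was 0.15. For the other liver X receptor targets the same medians were 0.445, 0.394 and 0.494, and 8 of the 14 tested were highest in library 1, 3 in library 2 and 3 in library 3. ABCG1 and PLTP, like most SREBP2 targets, were highest within Huh7 LR in library 1, and the part of that library in their level was not tested beyond leaving it out.

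The genes whose pattern over the 6 libraries was most like that of a changed gene were found among 12516 annotated genes, by the root mean square difference of centred log2(CPM + 0.5) values. For ABCA5 these were EPHA6 (0.0272) and DSE (0.0469). For ABCA7 they were AFAP1 (0.055) and MYO7A (0.0573). CES1 was nearest to NRG3 (0.0411) and C1S (0.0719), and PLTP to PRSS12 (0.0724) and SYT17 (0.0888). Among these 5 genes ABCG1 had the least similar match, the nearest being AHNAK2 (0.152) and CXCL1 (0.154). The added 0.5 CPM narrows the change of low genes, so likeness on this scale does not mean equal folds. The fitted log2 fold change was 2.93 for NRG3 (0.485 CPM in Huh7 P) against 2.16 for CES1, and 2.35 for AHNAK2 and 1.59 for CXCL1 against 2.79 for ABCG1.

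The genes that lie near ABCG1 were also described, after their values had been seen. Within 1 Mb, 20 annotated genes were tested, of which 11 rose and 3 fell with adjusted p-values below 0.05, with a median log2 fold change of 0.39. At this threshold 23.3% of everything tested was higher and 22.4% was lower. Of the 20 genes near ABCG1, 6 rose beyond 2-fold with adjusted p-values below 0.001, where 4.67% of the 14053 annotated genes tested did. They were FAM3B (log2 fold change 3.01), RSPH1 (2.42), TMPRSS2 (2.16), RIPK4 (1.14), TFF3 (1.08) and SLC37A1 (1.05). TFF3 is the nearest of these 6, while TFF1, which lies beyond TFF3, fell by 0.57. TFF2, which lies between them, rose by 0.61. Near the other members that changed beyond 2-fold, the medians were 0.32 over 9 genes for ABCA5, 0.05 over 61 for ABCA7, 0.14 over 29 for PLTP and -0.47 over 10 for CES1. Of these neighbours, 1 near ABCA5, 3 near ABCA7, 2 near PLTP and 0 near CES1 rose beyond 2-fold with adjusted p-values below 0.001.

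**Figure D5:**
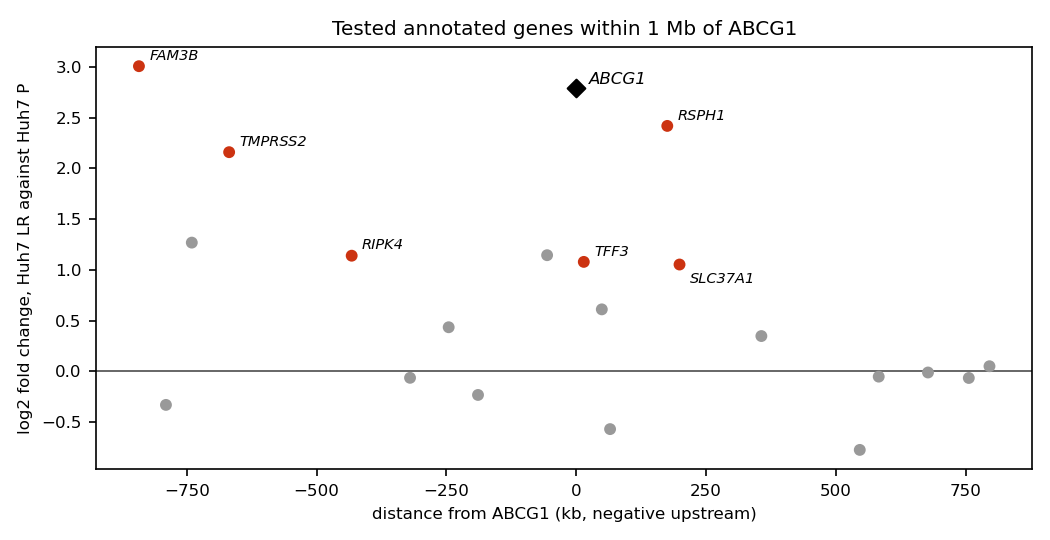
Log2 fold change of Huh7 LR against Huh7 P (vertical axis) for the 20 tested annotated genes within 1 Mb of ABCG1, against the distance between nearest gene ends in kb (negative upstream of ABCG1). The black diamond is ABCG1 at 2.79, and the 6 red points are genes that rose beyond 2-fold with adjusted p-values below 0.001, on both sides of ABCG1.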

How the data were processed

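RNA-seq libraries of Huh7 P and Huh7 LR (n = 3 each) were compared. The authors deposited, per gene and library, a raw read count and an FPKM value, scaled by them for length and library size. The submitters' processing notes name TopHat2, Cufflinks, DESeq and the mouse build mm10 without a role, although the identifiers are human Ensembl genes, and the labels' extraction text describes an insect. The strand setting is not given in the sources used here. Unannotated loci made up 2.86% to 3.35% of counts and stayed in the fit, and 34 lines of text were dropped.

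Counts (62738937 to 71427573 per library) were tested in R 4.3.3 with edgeR 4.0.16 (filterByExpr, minimum count 10 and minimum total 15, TMM, quasi-likelihood test, Benjamini-Hochberg adjustment over 17531 genes and loci). Standard errors were computed from the estimate and its F value. The receptor share was compared by an exact permutation test over samples. Scripts were tested on simulated data.

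The members and lists were chosen with earlier results of these data known, and lists were written from general knowledge. All members are named. In the lists, 12 genes are always named, and up to 4 more with the largest change at an adjusted p under 0.05 and at least 1 CPM in a line. Some genes of this rule are not reported here. Genes outside this rule (APOC2, APOM, CYP3A4, ABCA4, RXRG, APOC4, CES2, AADAC, the marker genes and the genes near ABCG1) were chosen after their values were seen. Alternatives were DESeq2 1.42.0 (size factors, Wald test), other filters, a replicate block, limma-trend 3.58.1 on log2(FPKM + 0.1) and log2(FPKM + 1) with a filter of 0.5 FPKM in 3 libraries, and on log2(FPKM + 0.1) without it, other thresholds and fits leaving out 1 library at a time. The lists without Huh7 LR library 1 were added after seeing the data. Same-numbered libraries were checked for pairing and were not taken as pairs. Figures used matplotlib 3.10.9.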

Additional observations from a re-analysis of the deposited data

How the results depend on the processing

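Over all genes and loci, 776 rose and 312 fell beyond 2-fold with adjusted p-values below 0.001. These became 268 and 84 on log2(FPKM + 1), 353 and 120 on log2(FPKM + 0.1) without a filter, and 4093 and 3923 with adjusted p-values below 0.05 and no fold. The causes were not tested. Leaving out each library gave 551 to 734 higher and 224 to 341 lower. With the replicate number as a block, 783 were higher and 316 lower and the calls of the 8 tested members were kept (5 higher, 1 lower). The block is not a pairing by design, since same-numbered libraries had correlations of 0.0371, 0.0719 and 0.0821, although every library correlated best with its own number.

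With libraries left out, NR1H2 ranged from 0.20 to 0.26 on the log2 scale and lost its call 3 times. ABCA1 ranged from -0.067 to 0.096 and was -0.057 and -0.067 without the third library of either line. SREBF1 turned to -0.013 in each FPKM fit, and ranged from -0.022 to 0.035, with -0.014 among the values, as libraries were left out. SOAT1 turned to 0.003 with 10 counts in every library, to 0.005 in each FPKM fit, and ranged from -0.094 to 0.085, with 0.003 among the values, as libraries were left out. Among other named genes, HDAC3, NCOR1, ABCA3 and INSIG1 lost their call in 12 fits in all, 9 of which left out a library, and CYP27A1 gained one in 8 fits, the block included. Without Huh7 LR library 1, lower genes went from 1 to 2 among other targets of the liver X receptors, from 2 to 3 among partners and cofactors, and from 0 to 1 in sterol trafficking and among SREBP2 targets. ABCA5, ABCA7, ABCG1, PLTP and CES1 kept their direction and an adjusted p under 0.05 in every alternative that tested them, and ABCG1 was not tested where FPKM was filtered. At 0.001 and 2-fold, ABCA5 (0.00236), PLTP (0.00194) and ABCG1 (0.0061) lost the call on log2(FPKM + 0.1) without a filter, ABCG1 also without Huh7 P library 1, 2 or 3 (0.00109, 0.00138 and 0.00203), and ABCA5 on log2(FPKM + 1), where its log2 fold change was 0.83. With 3 libraries a line, small changes such as that of NR1H2 are at the limit, and at 8 reads or fewer ABCG5 and ABCG8 cannot be compared.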
